A study of Mus musculus with 4 samples.

Results

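The 10 genes described here serve antigen presentation by MHC class II. They are the class II chain genes H2-Aa, H2-Ab1 and H2-Eb1, the invariant chain gene Cd74, the transactivator gene Ciita, the peptide-loading genes H2-DMa, H2-DMb1, H2-Oa and H2-Ob, and the protease gene Ctss. They were chosen by symbol, and every probe set that the platform annotation gives to a single member was taken. Of the 10 genes, 9 had such probe sets, 17 in all, against 18193 genes with a single-symbol probe set on the array. H2-DMb1 had none of its own and shared 2 probe sets with H2-DMb2. Another shared probe set named H2-Ob with Gm20506.

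J558 is a plasmacytoma line of BALB/c mice, a tumour of antibody-secreting cells, and 4 of its clones were profiled. All 4 had been transfected with a silencing vector (pSilencer) and a separate neomycin resistance vector and selected with G418. In the AID-silenced clones the vector held a sequence targeting activation-induced cytidine deaminase (AID), the enzyme that starts antibody gene mutation, and in the control clones it was empty. The titles arrange them as pair 1 and pair 2, each with 1 control and 1 AID-silenced clone, and RNA of each clone was measured on 1 Affymetrix mouse genome array. A clone descends from 1 transfected cell, so a difference between clones and an effect of the vector cannot be told apart within a pair. Each p-value sets a difference against the spread between clones, and the pair is a term of the fit only where this is said. The 2 arrays in each group limit the precision of every value.

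An MHC class II molecule is a pair of an alpha and a beta chain that shows peptides from the endosomal pathway to CD4+ T cells. The invariant chain escorts the new pair to the endosome, where cathepsin S trims it, and H2-DM exchanges the remaining fragment for peptide while H2-O restrains H2-DM. Ciita switches on the chain genes together with Cd74 and the H2-DM genes. B cells present antigen in this way, and plasma cells are known to shut down Ciita under the repressor Blimp-1, the product of Prdm1.

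The deposited values are signals on a linear scale, in which each array was scaled by the authors to a trimmed mean of 500. As a background measured on the same array, the 15 probe sets for the bacterial genes Dap, Lys, Phe, Thr and Trpn reached at most 41.9 in the control clone of pair 1, and 27.3, 27.5 and 27.2 in the AID-silenced clone of pair 1, the control clone of pair 2 and the AID-silenced clone of pair 2. These maxima are called the bacterial ceiling below. Signals of different probe sets are not compared with each other, since probes differ in how brightly they bind. Measured against its markers, the line was plasma cell-like: all 10 plasma cell markers, such as Xbp1, Sdc1, Jchain and Igha, lay above the ceiling in every clone. Of 11 measured mature B cell markers, 2, the signal chain gene Cd79a and the kinase gene Blk, lay below it in every clone. Another 4, Cd79b, Cd37, Ciita and Ms4a1, lay above it in every clone, Ms4a1 at 59.6 to 391. Among all measured genes, 56.4% lay above it in every clone and 18.2% in none. The count of 2 B cell markers was near the latter share, so nothing is read from it.

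At their brightest probe sets, 4 of the 9 measured genes, Cd74, Ctss, H2-DMa and Ciita, lay above the ceiling in all 4 clones, and 1, H2-Ob, in none. Of all measured genes on the array, 56.4% lay above it in all 4 clones and 18.2% in none. The signals of 5 of the 9 genes, grouped here because they were dim, lay near or below the ceilings. H2-Aa, H2-Eb1, H2-Oa, H2-Ob and Ciita have 10 probe sets together, and their 40 signals ran from 0.3 to 52.3 with a median of 19.5. Of these signals 15 lay above their array's ceiling. By clone these were 1 of 10 in the control and 6 in the AID-silenced clone of pair 1, and 4 each in the control and the AID-silenced clone of pair 2. The ceiling itself was highest in the control clone of pair 1.

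**Figure D1:**
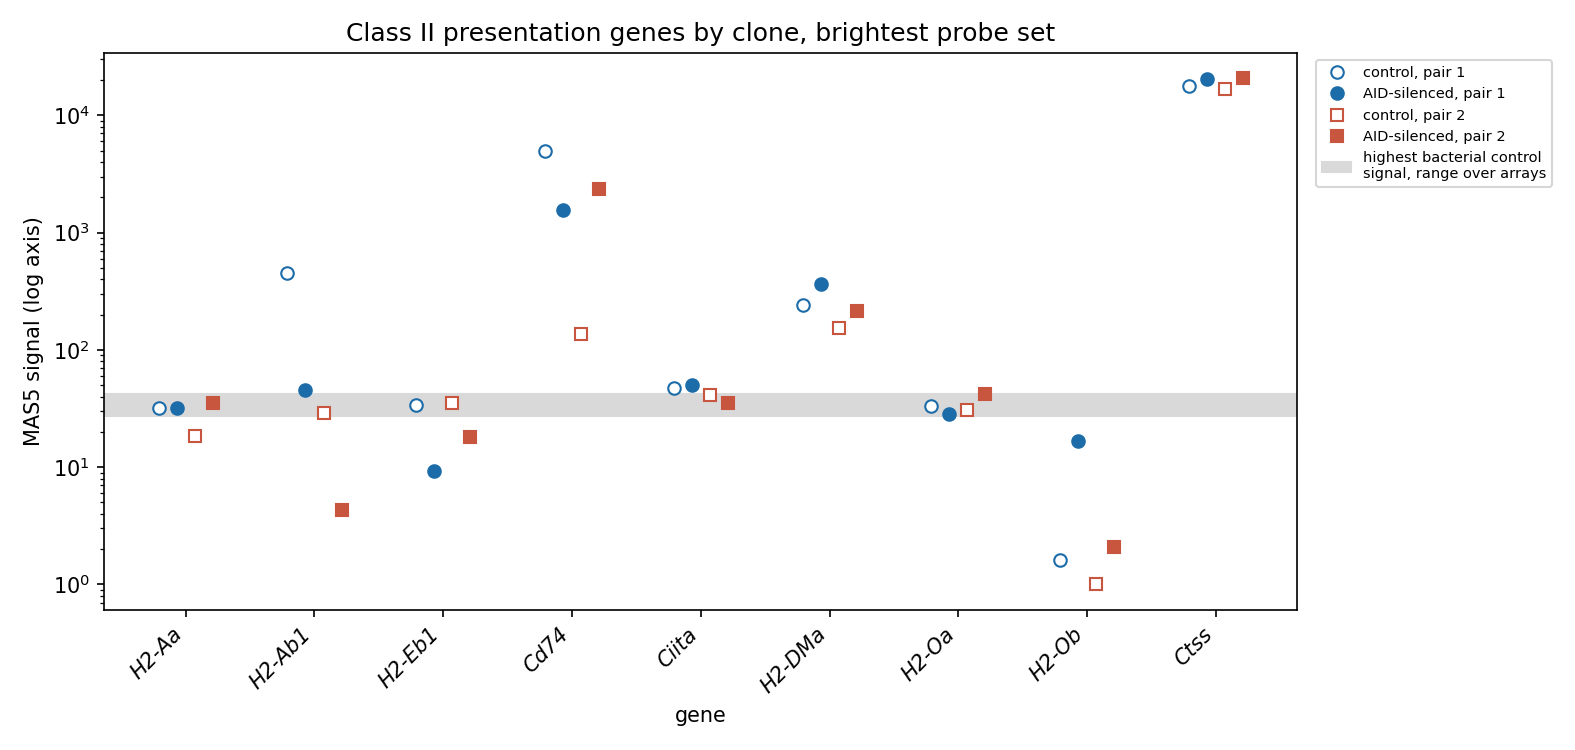
MAS5 signal (log axis) of the brightest probe set of each class II presentation gene, with 1 point for each clone, and a grey band for the bacterial ceilings of the 4 arrays, 27.2 to 41.9. Within a gene, Cd74 is lowest in the control clone of pair 2 at 138 and H2-Ab1 highest in the control clone of pair 1 at 452, while the 4 points of Ctss lie close together. Levels of different genes are not comparable.

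The alpha chain gene H2-Aa gave 32.0 in the control of pair 1 and 18.4 in that of pair 2 at its brightest probe set, and 31.8 and 35.1 in the matching AID-silenced clones. The groups overlapped, and the signals lay on both sides of the ceilings. One of its 3 other probe sets, 1435290_x_at, had 5.6 and 6.6 in controls and 52.3 and 33.3 in the AID-silenced clones, and the remaining pair ran from 0.3 to 33.8. The suffix x marks probes that can match other transcripts, and no other probe set of H2-Aa was higher in both pairs. H2-Eb1, the beta chain gene of the E molecule, had 33.8 and 35.5 in controls and 9.3 and 17.9 in AID-silenced clones. Only the control clone of pair 2 lay above its ceiling for H2-Eb1. H2-Oa, the alpha chain gene of the H2-DM inhibitor, had 33.0 and 30.8 against 28.5 and 41.9, and H2-Ob, its beta chain gene, had 1.6 and 1.0 against 16.8 and 2.1. The shared probe set of H2-Ob and Gm20506 was below the ceiling in every clone, with signals between 8.6 and 26.9.

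Several of the chain and loading genes hold a known regulatory layout in the reference genome, which is of C57BL/6J mice, not of the BALB/c strain from which J558 comes. The layout is an X box, bound by the RFX complex, followed at a similar distance by a Y box, bound by NF-Y, and Ciita acts through both. RefSeq promoter windows of GRCm38.p6, from 250 bases before to 50 bases after a gene's start, were matched for 7 of the 10 genes, and H2-Ab1, Cd74 and Ciita were not searched. The stretches below are shown because they are the 5 members in which the letters of both boxes were found. Capitals mark AAC, a part of the X box, and GATTGG, the core of the Y box, and the search took both on 1 strand, either strand, with 22 to 30 bases between, a spacing chosen from these sequences.
H2-Aa: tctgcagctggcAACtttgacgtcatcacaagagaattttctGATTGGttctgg
H2-Eb1: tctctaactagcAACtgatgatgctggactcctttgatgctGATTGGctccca
H2-Oa: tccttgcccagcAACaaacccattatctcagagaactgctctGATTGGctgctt
H2-Ob: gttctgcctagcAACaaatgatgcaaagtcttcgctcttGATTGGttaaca
H2-DMb1: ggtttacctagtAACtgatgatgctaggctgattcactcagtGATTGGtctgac
The stretches lie at chr17:34287861-34287914 (minus strand) for H2-Aa, and on the plus strand at chr17:34305766-34305818 for H2-Eb1, chr17:34092293-34092346 for H2-Oa, chr17:34238808-34238858 for H2-Ob and chr17:34153087-34153140 for H2-DMb1. The gap between the capitals was 27 bases in H2-Aa, H2-Oa and H2-DMb1, 26 in H2-Eb1 and 24 in H2-Ob. Such a pair of motifs stood in 1.82% of 32841 promoter windows, and GATTGG alone in 16.1%. The 2 windows of H2-DMa and the window of Ctss held no such pair. A match describes letters and is not evidence of binding.

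H2-Ab1, the beta chain gene of the A molecule, was the class II chain gene with a clear signal, and it had it in a single clone. At its brightest probe set, 1450648_s_at, the signals were 452 in the control clone of pair 1, 45.7 in the AID-silenced clone of pair 1, 29.0 in the control clone of pair 2 and 4.3 in the AID-silenced clone of pair 2. The control clone of pair 1 stood apart, the next 2 clones lay above their ceilings, and the AID-silenced clone of pair 2 lay below it. The second probe set, 1451721_a_at, gave 231, 42.3, 29.1 and 6.7 in the same order of clones. The third, 1425477_x_at, gave 148 in the control clone of pair 1 and 3.8, 4.7 and 10 in the others. All 3 probe sets thus had their highest signal in the control clone of pair 1. The AID-silenced clone was lower in both pairs at 2 of the 3.

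Only the brightest H2-Ab1 probe set was bright enough on average to enter the test across the array. Its mean log2(signal + 16) was lower in the AID-silenced clones by −2.04 ± 1.17 (SE, n = 2 per group, limma adjusted p = 0.9996 over all tested probe sets). The differences were −2.92 in pair 1 and −1.15 in pair 2. H2-Ab1 was the single member probe set at least 2-fold lower in both pairs, which 0.382% of tested probe sets were. It passed the filter on mean signal only through the control clone of pair 1, so nothing is read from that share. In pair 2 the signals were 29.0 and 4.3, so that difference is one between values near the background. Without the control clone of pair 2 the group difference was −3.73, without the AID-silenced clone of pair 2 it was −1.23, and without the control clone of pair 1 the probe set fell below the signal filter. Pair 2 was lower than pair 1 by a log2 difference of −2.49 ± 0.99 (SE, limma adjusted p = 0.366), and this was −3.95 without the AID-silenced clone of pair 1 and −1.58 with a pseudocount of 64.

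Irf8, an interferon regulatory factor that acts on Ciita in B cells and myeloid cells, had its signal in the same clone. It gave 142 in the control clone of pair 1 and 18.9, 21.0 and 13.0 in the AID-silenced clone of pair 1, the control clone of pair 2 and the AID-silenced clone of pair 2. Its second probe set gave 132, 12, 3.3 and 5.5. Irf8 was above its ceiling in the control clone of pair 1 and in no other. It was too dim on average to be tested.

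Markers of other presenting cells were set beside H2-Ab1. The summed signal of 8 macrophage and monocyte markers was 2463 in the control clone of pair 1 and 1455, 1330 and 1180 in the AID-silenced clone of pair 1, the control clone of pair 2 and the AID-silenced clone of pair 2. The scavenger receptor gene Marco, named after its values were seen, made most of that gap, with 1230 against 8.5, 3.6 and 3.9. In that clone Lyz2, Cd14 and Mrc1 had 21.5, 7.7 and 27.6, below the ceiling of 41.9, and Adgre1, Fcgr1, Csf1r and Cd68 had 46.6, 51.3, 213 and 866, above it. Csf1r, Cd68 and Fcgr1 lay above the ceiling in all 4 clones. The 7 measured dendritic cell markers summed to 436 and 448 in the control and the AID-silenced clone of pair 1 and to 233 and 265 in those of pair 2. That gap came from Flt3, with 253, 218, 92.2 and 109 in the same order, and Zbtb46, with 101, 159, 44.2 and 19.7. Siglech and Xcr1 went the other way between the pairs. Itgax and Clec10a lay below the ceiling in every clone, Flt3 above it in all 4 and Zbtb46 in 3. The 5 measured T cell markers summed to 520 in the control clone of pair 1 and to 278, 226 and 238 in the others, of which Cd2 made 350, 210, 24.4 and 99.1 in that order, with Cd4 below the ceiling in every clone and Cd8a above it in all 4. The T cell receptor complex gene Cd3e had 58.7 and 42.6 in controls and 23.7 and 14.9 in AID-silenced clones, on both sides of the ceilings. Cd3g, of the same complex, had 33.2 and 67.3 against 5.2 and 32.2, highest in the control clone of pair 2. Both genes were lower in each AID-silenced clone, as 27.5% of all tested genes were. Too dim on average to be tested, Cd3e and Cd3g fall outside the rule by which list genes were named, and are given as values. In a bulk sample, fewer cells with a transcript and less of it in each cell cannot be told apart. The part of other cells in the H2-Ab1 signal was not tested.

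**Figure D2:**
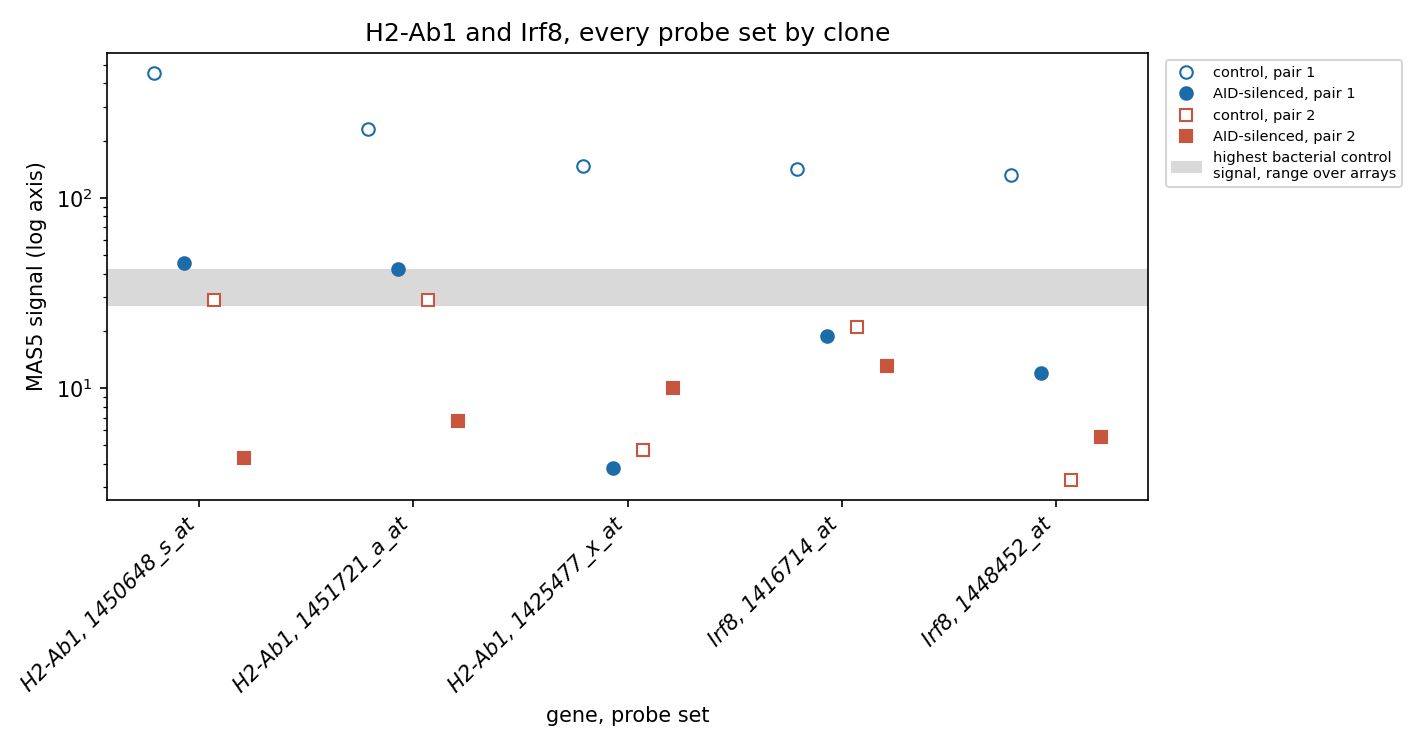
MAS5 signal (log axis) of the 3 probe sets of H2-Ab1 and the 2 probe sets of Irf8, with 1 point for each clone and a grey band for the bacterial ceilings. At each probe set the control clone of pair 1 lies highest, at 452, 231 and 148 for H2-Ab1 and 142 and 132 for Irf8, and the other clones lie near or below the band.

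Cd74, which encodes the invariant chain, was expressed in every clone and varied widely between them. Its probe set gave 4931 in the control clone of pair 1, 1573 in the AID-silenced clone of pair 1, 138 in the control clone of pair 2 and 2375 in the AID-silenced clone of pair 2. All 4 signals lay above the ceiling, and the control clone of pair 2 stood far below the others. On the log2(signal + 16) scale the highest and the lowest clone were 32.2-fold apart, and 0.115% of tested probe sets spanned as much or more. The AID-silenced clone was lower in pair 1 by −1.64 and higher in pair 2 by 3.96. The control clones lay at both ends and the AID-silenced clones between them. A difference of at least 2-fold in opposite directions was shown by 0.355% of tested probe sets.

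Over all 4 clones the Cd74 log2 difference of AID-silenced from control was 1.16 ± 1.52 (SE, n = 2 per group, limma adjusted p = 0.9996). The value rested on the control clones. Without the control clone of pair 1 it was 3.66 with limma adjusted p = 0.00132, and without the control clone of pair 2 it was −1.34 with adjusted p = 0.286. The first of these fits called 143 probe sets of all kinds. In each the lone control clone is assumed to vary as the other clones do. Cd74 differed between pair 2 and pair 1 by −2.21 ± 1.5 (SE, limma adjusted p = 0.574), and this was −0.23 when the control clone of pair 2 was left out and −4.19 when its AID-silenced clone was.

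The control clone of pair 2 had more genes of this kind than the others. At least 2-fold below the next clone were 222 of 10475 tested genes in the control clone of pair 2, and 83, 33 and 81 in the control clone of pair 1, the AID-silenced clone of pair 1 and that of pair 2. The 5 genes closest to Cd74 by Euclidean distance of their mean-centred log2 values over the 4 arrays were Rnf128, Gsta4, Gadd45a, Tnfsf9 and Dennd2d, all within a distance of 1.35. With 4 arrays many genes can take a like pattern. Rnf128, an E3 ubiquitin ligase gene, had 388, 231, 17 and 336 in the control and AID-silenced clones of pair 1 and then of pair 2. Gsta4, a glutathione transferase gene, had 354, 153, 13.0 and 133 in that order. The stress gene Gadd45a had 1270, 197, 32.3 and 260.

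Ciita lay close to the background in all clones. Its brightest probe set gave 47.4 and 41.5 in controls and 50.5 and 35.2 in the AID-silenced clones, each above its array's ceiling. The groups overlapped, and the differences were 0.07 in pair 1 and −0.17 in pair 2. The other 2 probe sets ran from 1.6 to 36.8, with a single signal above the ceiling. Ciita was not bright enough to be tested, so no call was possible for it. Its signal in the clone with H2-Ab1 signal, 47.4, lay between those of the other clones.

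H2-DMa, the alpha chain gene of the peptide exchange factor, was measured above the ceiling in every clone. Its signals were 242 and 155 in controls and 365 and 215 in AID-silenced clones. The AID-silenced clone was higher in both pairs, but the groups overlapped. The log2 differences were 0.57 and 0.43, with a mean of 0.50 ± 0.39 (SE, n = 2 per group, limma adjusted p = 0.9996). The mean was 0.14 without the AID-silenced clone and 0.80 without the control clone of pair 1, and 0.86 and 0.20 without those of pair 2. The dimmer second probe set was also higher in both pairs, by 0.86 and 0.55, at signals between 21.3 and 51.5. A difference in the same upward direction in both pairs was shown by 27.8% of tested probe sets. For its partner H2-DMb1, the 2 probe sets shared with H2-DMb2 gave 7.5 to 12.4 at the dimmer, and 48.2, 3.0, 16.5 and 14.1 at the other in the control and AID-silenced clones of pair 1 and then of pair 2. Only the 48.2 of the control clone of pair 1 lay above its ceiling.

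Ctss, which encodes cathepsin S, the protease that trims the invariant chain, was high and even across clones. Its signals were 17795 and 16913 in controls and 20258 and 20680 in AID-silenced clones. The AID-silenced clones were both above the control clones, which held for 15.5% of tested probe sets in that direction. The log2 differences were 0.19 in pair 1 and 0.29 in pair 2, with a mean of 0.24 ± 0.17 (SE, n = 2 per group, limma adjusted p = 0.9996). The highest and lowest clone were 1.22-fold apart. The pairs were at −0.02 ± 0.14 (SE, pair 2 minus pair 1, limma adjusted p = 0.960).
The RefSeq promoter window of Ctss is shown because this gene was far above the ceiling in every clone. It lies at chr3:95526536-95526835 on the plus strand of GRCm38.p6, and capitals mark GAAA, 2 bases of any kind and GAAA again, a motif of the kind that interferon regulatory factors bind.
Ctss: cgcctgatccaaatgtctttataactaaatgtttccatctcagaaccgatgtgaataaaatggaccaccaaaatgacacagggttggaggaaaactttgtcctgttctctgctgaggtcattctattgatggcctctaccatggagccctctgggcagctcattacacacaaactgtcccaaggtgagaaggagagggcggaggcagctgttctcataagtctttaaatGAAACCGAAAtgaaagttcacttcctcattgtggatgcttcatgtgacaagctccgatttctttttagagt
The motif begins 21 bases before the annotated start. Searched on both strands, it stood in 3.44% of 32841 windows and in no other member's window.

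Between AID-silenced and control clones, 0 of the 4 tested member genes passed a limma adjusted p of 0.05, against 0.00888% of all tested probe sets, and 0 reached an unadjusted p under 0.05, against 3.49%. The replicate block, in which the pair is a term of the fit, also called 0 of the 4, against 0.0355% of tested probe sets. Its limma adjusted p lay between 0.431 for H2-Ab1 and 0.946 for Cd74. The SE in that fit was 0.51 for H2-Ab1, 0.26 for H2-DMa, 0.12 for Ctss and 1.89 for Cd74. Of the 4, H2-DMa and Ctss were higher in both pairs, H2-Ab1 lower, and Cd74 opposite, directions shown by 26.7%, 27.5% and 45.7% of all tested genes. Their median log2 difference was 0.37, and that of all 10475 tested genes was 0.00. The 4 had passed a filter on mean signal, and the other 5 measured genes had not, so this median describes the brighter members only. Between pair 2 and pair 1, 0 of the 4 passed as well, where 0% of all tested probe sets did, and with the group as a term of the fit it was 0 against 0.0178%. An unadjusted limma p under 0.05 between the pairs was reached by 13.5% of tested probe sets and by 1 of the 4, H2-Ab1, from which nothing is read for the reason given above.

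**Figure D3:**
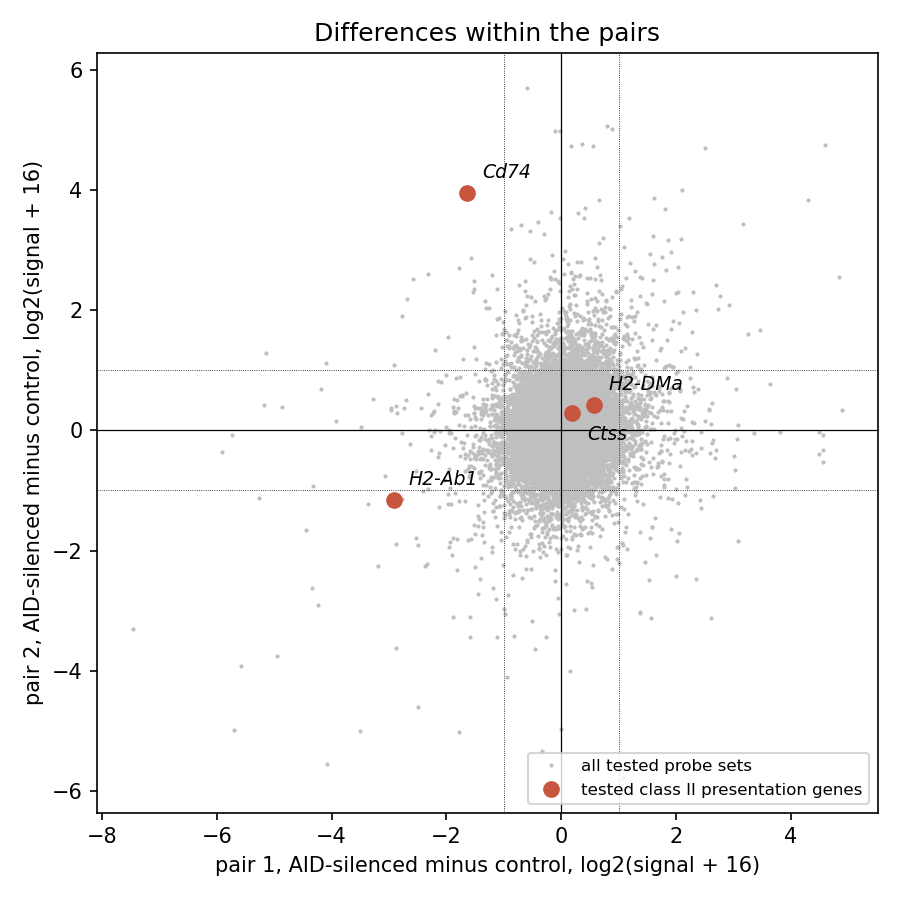
Log2 difference of AID-silenced minus control in pair 1 (horizontal) and pair 2 (vertical) for all 22519 tested probe sets (grey) and the 4 tested class II presentation genes (red). Dotted lines mark 2-fold. Cd74 lies at −1.64 and 3.96, H2-Ab1 at −2.92 and −1.15, and H2-DMa and Ctss lie within the cloud.

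The factors that bind class II promoters were present in every clone. Signals ran from 855 to 1212 for Rfx5, from 605 to 992 for Rfxank and from 730 to 949 for Rfxap, the subunits of the RFX complex. Those of the NF-Y subunits ran from 690 to 1417 for Nfya, from 940 to 1085 for Nfyb and from 1229 to 1886 for Nfyc. All 6 lay above the ceiling in the 4 clones, and their log2 differences between groups ran from −0.17 for Rfx5 to 0.19 for Nfya. None was past the threshold.

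Of the factors that act on Ciita, Prdm1, which encodes the repressor Blimp-1, had 1435 and 2131 in controls and 2760 and 2240 in AID-silenced clones. Its log2 difference was 0.94 in pair 1 and 0.07 in pair 2, with a mean of 0.50 ± 0.27 (SE, n = 2 per group, limma adjusted p = 0.9996). Its lowest signal was in the control clone of pair 1. Of the other plasma cell markers, Mzb1 was lowest in the AID-silenced clone of pair 1, and Tnfrsf17 and Slamf7 in the control clone of pair 2. The rest, Irf4, Xbp1, Sdc1, Jchain, Igha and Fkbp11, were lowest in the control clone of pair 1. A link of Prdm1 to the H2-Ab1 or Irf8 signal of that clone was not tested. Irf4, a factor of plasma cell identity, ran from 10557 to 14979, and Spi1, which encodes PU.1, from 1092 to 1508. Spib, a relative of Spi1, ran from 35.5 to 49.5. Pax5, the B cell identity factor whose loss accompanies plasma cell differentiation, ran from 21.5 to 76.2. Over the whole list of 20 transactivators and regulators, 15 were tested, of which 7 were higher in both pairs, 1 was lower, 7 were opposite and 0 passed the limma threshold. The list's median log2 difference was 0.12, against 0.00 over all tested genes, of which 26.7% were higher in both pairs.

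**Figure D4:**
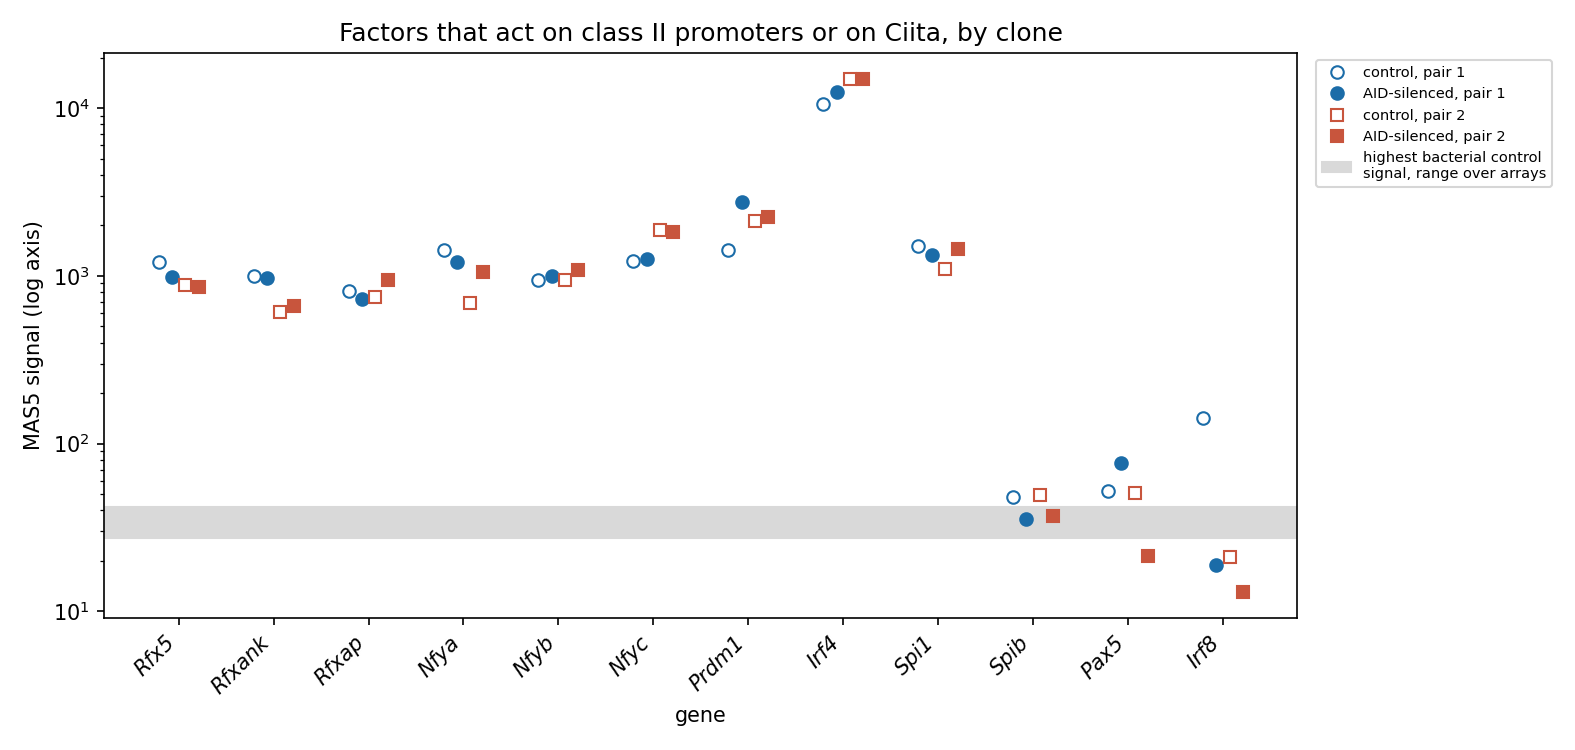
MAS5 signal (log axis) of 12 factors that act on class II promoters or on Ciita, with 1 point for each clone and a grey band for the bacterial ceilings. The RFX and NF-Y subunits, Prdm1, Irf4 and Spi1 lie above the band in every clone, and Irf8 lies above it in the control clone of pair 1 alone, at 142.

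Other genes of the pathway were counted from lists. Of 16 endosomal and antigen-processing genes, 13 were tested, with 4 higher in both pairs, 3 lower, 6 opposite or equal and 0 past the threshold (median 0.03). Over all tested genes 26.7% were higher, 27.5% lower and 45.7% opposite, and 0.00888% of probe sets passed the threshold. Lgmn, the asparagine endopeptidase that makes early cuts in the invariant chain, had 11613 and 14313 in controls and 15293 and 18064 in AID-silenced clones. Ctsb, cathepsin B, had 5123 and 6130 against 8125 and 7345. Ctsl, cathepsin L, which takes the place of cathepsin S in thymic epithelium, had 7533 and 6472 against 6642 and 3738. Sppl2a, the intramembrane protease that clears the last fragment of the invariant chain, had 712 and 1185 against 551 and 744. At these probe sets Lgmn and Ctsb were higher, and Ctsl and Sppl2a lower, in the AID-silenced clone of each pair. For Sppl2a the other 2 tested probe sets, at signals between 388 and 889, were opposite in the pairs, with −0.43 and 0.26 at one and −0.19 and 0.23 at the other.

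The interferon gamma route, which switches on Ciita in many cell types, had 9 measured genes and 6 tested. Of these, 2 were higher in both pairs, 2 lower, 2 opposite and 0 past the threshold (median 0.04). The shares over all tested genes were 26.7%, 27.5% and 45.7%, and 0.00888% of probe sets passed the threshold. The receptor chain genes Ifngr1 and Ifngr2 ran from 340 to 389 and from 284 to 346 over the clones. Irf1, which acts on the interferon-responsive Ciita promoter, had 721 and 538 in controls and 754 and 764 in AID-silenced clones. Its relative Irf2 had 374 and 218 against 271 and 116.

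The further class II genes were also near the background, and 0 of 3 measured genes entered the test. H2-DMb2, a second H2-DM beta chain gene, had 69.0 and 51.8 in controls and 30.6 and 33.2 in AID-silenced clones. All 3 of its probe sets were lower in the AID-silenced clone of each pair, by −0.87 and −0.46 at the brightest and by −0.42 to −0.08 at the others. H2-Eb2 had 36.2 and 58.8 against 57.4 and 35.0. H2-Ea, the alpha chain gene of the E molecule, had 22 and 32.0 against 30.2 and 20.6, and BALB/c mice are known to carry an intact copy of it.

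The class II chain genes lie next to class I presentation genes, and the neighbours gave strong signals. Between H2-DMb1 and H2-Ob in the gene order of GRCm38.p6 stand Psmb9, Tap1, Psmb8 and Tap2, which encode immunoproteasome subunits and the peptide transporter. This stretch was chosen after the values were seen. All 4 lay above the ceiling in every clone, whereas H2-Ob, H2-Aa and H2-Eb1 beside them lay near or below it. Psmb8 had 3229 and 638 in controls and 1954 and 1640 in the AID-silenced clones, and Psmb9 had 2120 and 411 against 1940 and 980. Tap1 had 741 and 196 against 808 and 302, and Tap2 had 904 and 301 against 769 and 399.
Each of these 4 genes was lowest in the control clone of pair 2, the clone in which Cd74, on another chromosome, was also lowest. Of the classical class I genes, H2-K1 had 15037 and 4678 in controls and 16508 and 9451 in AID-silenced clones. Of 8 tested class I presentation genes 5 were higher in both pairs, 3 opposite and 0 past the threshold (median 0.43). Of all tested genes 26.7% were higher in both pairs, with a median of 0.00. The differences of the 5 ran from 0.12 to 0.22 in pair 1 and from 0.21 to 1.25 in pair 2.

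**Figure D5:**
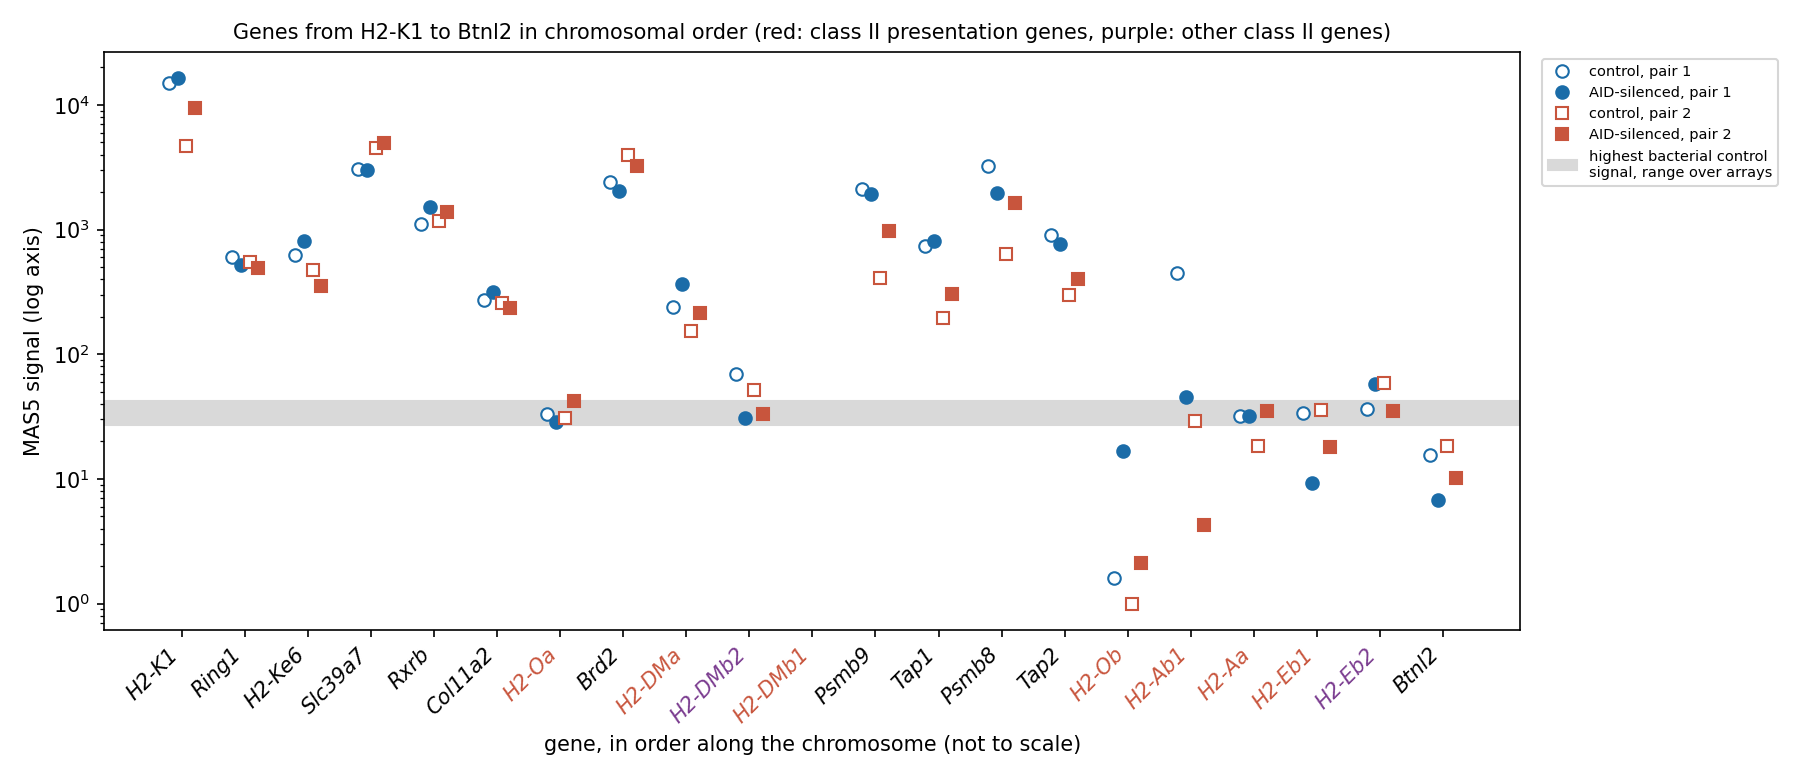
MAS5 signal (log axis) of the protein-coding genes from H2-K1 to Btnl2 in chromosomal order, with 1 point for each clone and a grey band for the bacterial ceilings. H2-DMb1 has no probe set of its own and no point. The 4 genes from Psmb9 to Tap2 lie above the band in every clone, and the class II genes to their right, apart from H2-Ab1 in the control clone of pair 1 at 452, lie near or below 58.8.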

How the data were processed

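The deposited table holds array intensity values, 1 signal per probe set on a linear scale, made by the authors with MAS5 (per the submitters' processing notes), whose version is not given in the sources used here. The method gives unstable signals for dim probe sets, and its detection calls were not used here. The 2% trimmed mean was checked to be 500 on all 4 arrays, so no further scaling was applied. Of 45101 probe sets, 64 Affymetrix controls were left out. Values were taken as log2(signal + 16), which understates differences of dim genes, and the brighter 0.5 of the probe sets by mean log2 value, 22519 with a mean signal from about 49.4, were tested. Groups were compared with limma 3.58.1 in R 4.3.3 (lmFit, eBayes with trend and robust, 2-sided, Benjamini-Hochberg over all tested probe sets, threshold 0.05). The same test compared pair 2 with pair 1. A run on simulated data with planted differences checked the size of the estimates only. How many planted differences it called is not reported here. Each gene is represented by the probe set with its highest mean log2 value. Probe sets with several symbols (932) were given to no gene, and 0 symbols changed when updated by gene identifier. The labels do not say what paired clones have in common. Clones were paired by the numbers in the titles, and the shift from pair 1 to pair 2 in the controls correlated with that in the AID-silenced clones (r = 0.306, rho = 0.336, over 22519 probe sets).

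The members and the lists were chosen with earlier results of these data known. All probe sets of all members are accounted for. Of the other lists, 12 regulators and the further class II genes were always named, and elsewhere up to 4 tested genes with like signs in the pairs and the largest mean difference were eligible. Alternatives were quantile and median scaling, pseudocounts of 1 and 64, other filters, the prior, the pair as a block, the mean of probe sets and leaving out each clone. The level of the silenced gene is not reported here. Figures were drawn with matplotlib 3.10.9.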

Additional observations from a re-analysis of the deposited data

Results flagged for a closer look

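Cd74 differed in opposite directions in the pairs. The AID-silenced minus control log2 difference was −1.64 in pair 1 and 3.96 in pair 2. Each pair has 1 clone in each group, so the difference between the pairs was not tested.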

How the results depend on the processing

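The limma count of 2 called probe sets between groups was 8 with the replicate block, 0 without the trended and robust prior, and between 2 and 143 when 1 clone was left out (143 without the control clone of pair 1, 59 without that of pair 2). Of the member genes 0 were called under every alternative run, except 1, Cd74, at 3.66 (limma adjusted p = 0.00132) when the control clone of pair 1 was left out, so the range over left-out clones was 0 to 1. Cd74 turned to −1.34 without the control clone of pair 2. Between pairs, 0 called probe sets became 4 with the group as a term of the replicate block fit, and 0 to 54 when a clone was left out (54 without the AID-silenced clone of pair 2), with 0 member genes in each. The pair difference of Ctss turned to 0.01 under median scaling, 0.07 without the AID-silenced clone of pair 1 (left-out clones gave −0.17 to 0.12) and 0.12 without the control clone of pair 2. The count of 1 member probe set that differed 2-fold or more with like signs in the pairs was 0 with a pseudocount of 1, with a pseudocount of 64 and with the stricter filter, and 2 without a filter, where H2-Aa at 1435290_x_at joined. For all probe sets this count was 196, and 106 with a pseudocount of 64, 642 without a filter and 42 with the stricter filter. Over the alternatives that kept it in the test, the group difference of H2-Ab1 ran from −3.73 to −1.23, that of H2-DMa from 0.14 to 0.86 and that of Ctss from 0.20 to 0.28. H2-Ab1 gave no value with a pseudocount of 1, the stricter filter, the mean of probe sets or without the control clone of pair 1, and H2-DMa none with the stricter filter, because they fell below the filter. The cause of the other shifts was not tested. Signal over background limits H2-Aa, H2-Eb1, H2-Oa, H2-Ob and Ciita, which were not tested.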

Other observations

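The costimulatory genes that accompany class II presentation were mostly near the bacterial ceiling. Of 9 genes of class II turnover and costimulation, 2 were bright enough to be tested. Both were opposite in the pairs, as were 45.7% of all tested genes. Cd274, which encodes PD-L1, had signals of 1771 and 871 in controls and 1802 and 581 in AID-silenced clones. Marchf8, a ubiquitin ligase gene that can remove class II molecules from the surface, had 502 and 377 against 511 and 341. Cd86, a ligand of CD28, had 55.6 and 28.5 in controls and 2.8 and 2.0 in AID-silenced clones. Icosl, the ligand of ICOS, had 138 and 56.6 against 49.2 and 5.7. Both Cd86 and Icosl were lower in each AID-silenced clone and were too dim on average to be tested. As untested genes they fall outside the rule by which list genes were named, and are given as values. Of all tested genes 27.5% were lower in both pairs. Pdcd1lg2 went the other way, with 27.1 and 36.0 in controls and 33.1 and 49.6 in AID-silenced clones. Cd40 was opposite in the pairs, with 40.0 and 56.5 against 2.9 and 73.9. Cd80, a relative of Cd86, had 17.3 and 25.7 against 47.6 and 23.2. Cd83 and Marchf1 lay below the ceiling in every clone.

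Socs1 and Socs3, feedback inhibitors of cytokine signalling, had their highest signal in the control clone of pair 1. Socs1 had 65.9 there and 2.4, 19.5 and 13.8 in the AID-silenced clone of pair 1, the control clone of pair 2 and the AID-silenced clone of pair 2. Socs3 had 107 there and 38.3, 5.8 and 10.8. The phosphatase gene Ptpn2, which also restrains cytokine signalling, was highest in the AID-silenced clone of pair 2, at 4619. Socs1 and Socs3 were named after their values were seen, were too dim on average to be tested, and are given as values. Of 10475 tested genes, 72 were at least 2-fold above the next clone in the control clone of pair 1, against 43, 74 and 7 in the AID-silenced clone of pair 1, the control clone of pair 2 and the AID-silenced clone of pair 2.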
